A study of Homo sapiens with 10 samples.

Results

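Chromatin modifiers and remodelers were followed through 4 kinds of measurement in HCT116, a human colorectal cancer cell line, with and without knockdown of YTHDF1. YTHDF1 is a reader of N6-methyladenosine (m6A), a methyl mark on adenosines of mRNA. The genes were chosen by symbol from the 6926 genes of the expression table: names that begin with KDM, KMT, SETD, HDAC, SMARC, ARID, GATAD2, MTA, CHD or BRD, and the Polycomb genes EZH1, EZH2, SUZ12 and EED. This gave 58 genes, none chosen for a measured value. EZH2, HDAC2, CHD4 and SMARCA4, which the rule would take, are not among them and were not analysed here.

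Ribosome profiling, which sequences the mRNA pieces covered by ribosomes, had 1 control library with a hairpin against GFP and 2 knockdown libraries, and mRNA-seq had the same numbers. The knockdown libraries are titled shY1-1 and shY1-2 while their genotype field gives shY1 alone, so different hairpins and repeats of 1 hairpin cannot be told apart. They are called knockdown 1 and knockdown 2 here. YTHDF1-bound RNA was taken from control cells with a YTHDF1 antibody (RIP, 1 library and 1 whole-lysate input), and m6A-seq of control cells had 2 replicates. The treatment field of every sample gives cycloheximide at 100 ug/ml for 3 min. Nothing in the labels states that libraries came from separate cultures. The p-values measure only the spread between knockdown 1 and knockdown 2, which may be technical or a difference between hairpins. The 1 control library of each assay adds no spread.

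Chromatin complexes write, read, erase or move histones. NuRD pairs a remodelling ATPase with histone deacetylases, SWI/SNF and ISWI slide or evict nucleosomes, PRC2 places the repressive H3K27 methyl mark, and KMT2 and SETD1 enzymes place H3K4 methylation at active genes. Demethylases and deacetylases remove such marks. The mRNA of many of these proteins is long, and m6A within an mRNA is the feature that YTHDF1 binds, a protein known for promoting the translation of methylated mRNA in some cells.

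Expression values are a deposited relative abundance per gene in a unit left unnamed by the header, so read depth is unknown. The footprint values summed to between 938928 and 1227324 per library and the mRNA values to between 339763 and 345044. YTHDF1 mRNA was 27.4 in the control against 8.62 and 7.81 in the knockdown libraries 1 and 2, and its footprints were 61.4 against 17.0 and 19.9. Both knockdown libraries were below the control in both assays, although neither log2 change, -1.62 ± 0.40 and -1.69 ± 0.40 (SE), passed in limma (adjusted p = 1.00 and 0.552). Of 6 epithelial markers, 5 were in the table with summed mRNA values of 3402 to 5497 per library, and VIL1 was not analysed. Of 5 fibroblast markers, 3 were in the table and summed to 6.35 to 7.50 in mRNA. Of 3 blood markers only CD68 was in it, with mRNA values of 4.98 to 19.9 and footprint values of 9485 to 15090.

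m6A peaks were listed for most chromatin genes. A listed peak has a signal in the immunoprecipitate at least 3 times that of the input, in a window given in bases along a transcript that the lists do not name. Of the 58 genes, 52 (89.7%) had a peak in both replicates, 3 in replicate 2 alone (EED, KDM8 and SMARCA5), and 3 in neither (KDM4D, SETD4 and SETDB2). Among the 57 genes that passed the filter on low values, 52 (91.2%) had a peak in both replicates, against 73.3% of the 6782 genes tested. KMT5A, KMT5B and KMT5C were found in these lists under their older symbols SETD8, SUV420H1 and SUV420H2.

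The lists name the 5 bases around the m6A position closest to each peak. These letters are shown for the strongest window of the genes that recur below, with the adenosine at the assigned position in capitals. Windows are those of replicate 1, written 5′ to 3′. The strongest window of replicate 2 lay elsewhere for HDAC4, SUZ12, GATAD2B, KDM6B and KMT2A. The HDAC4 window shown overlaps no peak of replicate 2. The position lies inside the window except for GATAD2B and HDAC4, where it is base 1047 and base 1914, just before the window.
SMARCC1, bases 3450 to 3575: agAct
CHD8, bases 7850 to 7950: ggAct
KMT2A, bases 1550 to 1825: agAcc
CHD6, bases 4825 to 5050: agAcc
SUZ12, bases 2325 to 2400: ggAca
ARID1A, bases 6650 to 6750: agAct
HDAC4, bases 1925 to 2000: agAct
MTA3, bases 1225 to 1375: ggAcc
KDM6B, bases 3100 to 3375: ggAct
GATAD2B, bases 1050 to 1225: aaAcc

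Every deposited 5-mer has a purine at its first and second base, then A and C, then any base but G, so this form was fixed when positions were assigned and is not a finding. Within it the chromatin genes had fewer positions that begin with gga, 111 of 491 peaks (22.6%), than all 49349 listed peaks (30.1%). Positions that begin with aga, gaa or aaa made up 27.9%, 25.9% and 23.6% of the chromatin peaks against 25.5%, 23.3% and 21.2% of all peaks. Peaks of 1 gene and of both replicates are not independent, so these shares carry no test. KMT2A, the MLL1 methyltransferase, had gga at 14 of 43 peaks, ARID1A at 8 of 20 and CHD8 at 6 of 20. GATAD2B and SUZ12 each had it at 1 of 13.

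KMT2A carried more peaks than any other of the 58 genes, 19 in replicate 1 and 24 in replicate 2. CHD8, a remodeler that binds beta-catenin, had 11 and 9, and ARID1A, the DNA-binding subunit of the BAF form of SWI/SNF, had 10 and 10. ARID2 of the PBAF form had 9 and 9, SETD5 had 9 and 8, and KDM2A, KDM6B and ARID5B had 8 and 8 each. At the low end of the genes with peaks in both replicates stood CHD9, HDAC1 and SMARCC2 with 1 and 1. The median gene had 6 peaks over both replicates, against 4 for all genes tested, and 8 against 5 among genes with a peak in both. The chromatin genes also had a longer span on the chromosome, introns included, with a median of 55.7 kb against 32.2 kb. Among the 2086 tested genes with a span at least that of the median chromatin gene, 73.2% had a peak in both replicates. The length of the mRNA was not compared.

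Replicates gave largely overlapping windows. Of the 242 peaks in replicate 1, 196 (81.0%) overlapped a peak of replicate 2 by at least 1 base and 152 (62.8%) had the same m6A position. The replicates are not fully independent, because in all 5972 windows that are identical in both lists the input signal is identical too. The authors' ratios of the chromatin peaks ran from 3.01 to 99.6 with a median of 5.56. The highest belonged to SMARCC1, a core SWI/SNF subunit, at 99.6 and 65.0 in the replicates. Its input signal there was only 7.43 and 4.12, and CHD8 reached 83.2 and 54.4 over inputs of 6.31 and 3.19, so the top ratios sat on low inputs. GATAD2B had 6 and 7 windows with ratios of up to 7.88 and 9.22, and KDM6B had 8 and 8 with up to 12 and 15.4.

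**Figure D1:**
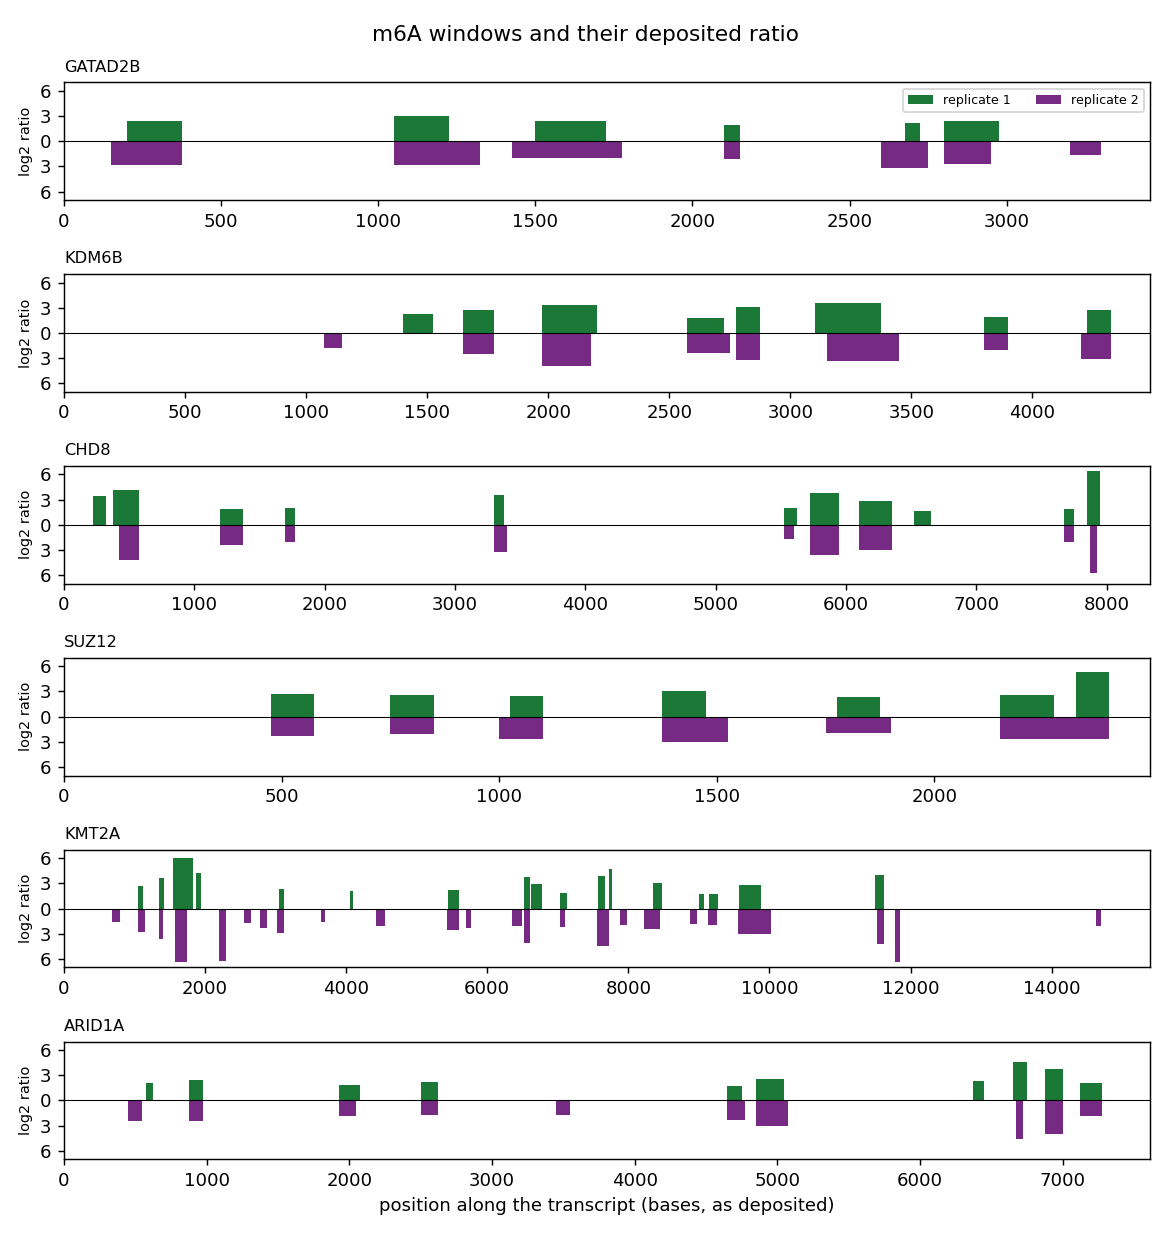
m6A windows of 6 chromatin genes along the transcript in bases, with the deposited ratio of immunoprecipitate over input on a log2 axis, replicate 1 upward in green and replicate 2 downward in purple. KMT2A has 19 and 24 windows, of which 2 in replicate 1 have no ratio because the input is 0 and are not drawn, and GATAD2B has 6 and 7.

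YTHDF1 RIP listed 38 of the 58 genes. The list shows only genes with an antibody over input ratio of at least 1.5 and an input FPKM of at least 1, so a gene outside it may lie under either limit, and there is no replicate. Of the 57 genes tested 37 (64.9%) were listed, against 36.1% of all genes tested. Among genes with a span at least that of the median chromatin gene the share was 45.2%, and mRNA length was not compared. The median ratio of those listed was 2.75, against 2.27 for all 2447 tested genes in the list, and 42.1% against 25.4% had a ratio of at least 3.

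CHD6, a remodeling ATPase, had the highest ratio of the group at 6.88, from 8.37 FPKM with the antibody and 1.22 FPKM in the input. SETD1B, the catalytic subunit of a COMPASS complex, followed at 5.43, ARID1A at 5.38 and KMT2A at 5.14. KDM5A, an H3K4 demethylase, stood at 4.99, CHD8 at 4.53, HDAC4, a class IIa deacetylase, at 4.38 and KDM4B, an H3K9 and H3K36 demethylase, at 4.33. Several of these ratios rest on low inputs, with 1.38 FPKM for HDAC4 and 1.52 FPKM for KMT2A, while ARID1A had 67.1 FPKM over 12.5 FPKM. The most abundant listed gene was KDM1A, the LSD1 demethylase, at 119 FPKM over 60.9 FPKM, a ratio of 1.95.

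By complex, all 4 H3K4 methyltransferase genes were listed with ratios from 2.90 to 5.43, and 9 of 10 demethylases from 1.95 to 4.99. Of the SWI/SNF subunits 3 of 8 were listed, with ARID1A at 5.38, ARID2 at 3.27 and SMARCC2 at 1.52. In NuRD they were CHD3 at 3.96, GATAD2A at 2.21 and GATAD2B at 1.73, out of 6 genes. PRC2 had only EZH1, its H3K27 methyltransferase, at 1.56 of 3 genes, and the ISWI ATPase SMARCA5 was not listed. Across the 38 listed genes the ratio and the number of m6A peaks had a Spearman correlation of 0.37, against 0.31 across the 2447 genes. The points share 1 antibody library and 1 input, and the number of peaks itself had a Spearman correlation of 0.35 with the gene span.

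**Figure D2:**
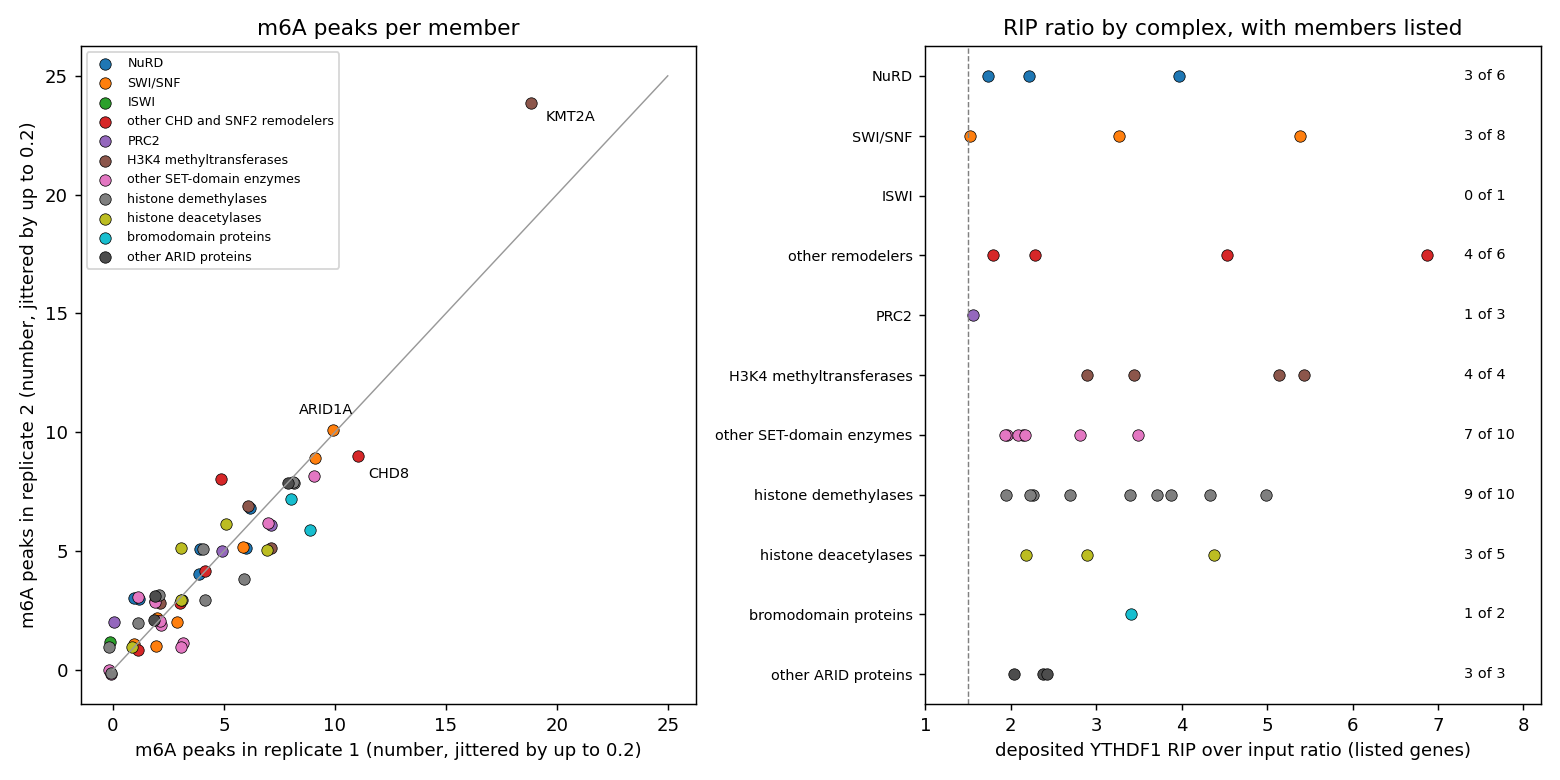
Left, number of m6A peaks per chromatin gene in replicate 1 against replicate 2, coloured by complex, with the line of equality and KMT2A at 19 and 24. Right, deposited RIP over input ratio of each listed gene by complex, with the number listed of all genes of that complex; the dashed line marks the list's lower limit of 1.5.

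Ribosome footprints of 1 chromatin gene passed the threshold between knockdown and control, in a comparison that rests on 1 control library. GATAD2B, the p66 beta subunit of NuRD (chromosome 1, 153804725 to 153922972), had a control footprint value of 858, against 38.2 and 33.1 in the knockdown libraries 1 and 2. The knockdown libraries lay close together and far below the control, a log2 change of -4.56 ± 0.39 (SE) on the log2(value + 1) scale, which passed in limma with adjusted p = 0.0460. Its mRNA values in the same order were 9.39, 12.3 and 8.53, with the control between the knockdown libraries. It was 1 of 2 genes called among all tested (0.0295%), and 8 of 57 chromatin genes had an unadjusted p under 0.05 against 8.85% of all genes. In bulk samples, fewer cells of a kind and less RNA per cell cannot be told apart.

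The GATAD2B value rests on 1 control library, in which its ratio of footprints to mRNA was 91.4, at the 99.8th percentile of all genes, against 3.11 and 3.88 in the knockdown libraries (67.2nd and 79.3rd percentile). The call was lost after median centring (log2 change -4.27, adjusted p = 0.0643), quantile normalisation (-4.31, 0.0536), a pseudocount of 0.1 (-4.59, 0.0654) and without the filter on low values (-4.56, 0.0515).

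The other NuRD genes lay on different sides of the control and none passed. Values here and below are in the order control, knockdown 1, knockdown 2. MTA3, a scaffold subunit, had footprint values of 18.0, 35.7 and 53.6, so both knockdown libraries were above the control (log2 change 1.24 ± 0.46). CHD5, a NuRD ATPase best known from neural cells, stood at 5.86, 0.0723 and 0.155, so both knockdown libraries were near 0. CHD5 passed the filter on low values only through its control footprint library, with a mean log2 value of 1.2 over all libraries and 0.88 without that one, so it had to lie below the control. Without CHD5, 7 of 56 genes had an unadjusted p under 0.05 in footprints. CHD3, the Mi-2 alpha ATPase, stood at 4.0, 3.11 and 27.4, and its mean change of 1.11 comes from knockdown 2 alone, since it is -0.28 when knockdown 2 is left out. GATAD2A, the p66 alpha relative of GATAD2B, stood at 119.9, 93.7 and 94.9, and MTA2 at 66.9, 59.5 and 46.2. After subtraction of the median change of all genes, -0.28, these last 2 genes differed from it by -0.06 and -0.07. HDAC1, the deacetylase of NuRD, SIN3 and CoREST, stood at 329.5, 252.5 and 313.2 (log2 change -0.23, but 0.06 after median centring and 0.00 after quantile normalisation).

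In PRC2 the gene with the largest footprint change was SUZ12, the core scaffold (chromosome 17, 31937007 to 32001038). Its footprint values were 2.33, 11.1 and 14.0, while its mRNA stood at 8.62, 8.01 and 8.87. Both knockdown libraries exceeded the control in footprints, with a log2 change of 2.02 ± 0.46 (SE), unadjusted p = 0.00405 and limma adjusted p = 0.552. SUZ12 was unusual in the control library, where its footprint to mRNA ratio of 0.270 lay at the 3.66th percentile, against 1.39 and 1.57 in the knockdown libraries (36th and 46.3rd). EED, which reads the H3K27 mark, stood at 57.5, 43.6 and 44.4, and EZH1 at 10.4, 10.5 and 11.1. The 3 measured PRC2 genes therefore did not share a direction.

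Among demethylases KDM6B, the JMJD3 enzyme that removes H3K27 methylation (chromosome 17, 7834217 to 7854796), stood lowest relative to its control. Its footprint values were 37.8, 3.32 and 4.99, and its mRNA values 8.08, 4.87 and 5.58, so both assays were lower in both knockdown libraries. The footprint change was -2.93 ± 0.48 (SE) with limma adjusted p = 0.363, and was not called. Without knockdown 2 of the footprints the adjusted p was 0.0377, but that fit sets 1 footprint library against 1 and takes its spread from the mRNA knockdown libraries alone. KDM2B, an H3K36 demethylase that recruits Polycomb to CpG islands, had footprints of 15.5, 5.71 and 7.13. KDM5A stood at 13.2, 21.7 and 19.8, both knockdown libraries above the control. Of the 9 demethylases tested, 4 had both knockdown libraries below the control (against 51.2% of all genes), 1 above (against 17.5%) and 4 on either side. After median centring 2 were below (against 30.9%) and 3 above (against 34%). KDM4D, the tenth, did not pass the filter on low values, with footprints of 2.65, 0 and 1.36.

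CHD8 (chromosome 14, 21385199 to 21456123) differed between the knockdown libraries more than any other gene of the group. Its footprint values were 1275, 19.6 and 1228, and its mRNA stood at 10.2, 12.4 and 10.9. Its mean change of -3.01 ± 2.03 (SE) did not pass (limma adjusted p = 0.639), and was -5.96 without knockdown 2 and -0.05 without knockdown 1. The footprint to mRNA ratio lay at the 99.9th percentile in both the control and knockdown 2. The RefSeq annotation places the small nucleolar RNA genes SNORD9 and SNORD8 inside the CHD8 span, and their part in the footprint value was not tested. Small nucleolar RNA genes also lie inside BRD7, KDM2A and SMARCC1, whose footprint to mRNA ratios in the control were 2.14, 1.37 and 4.10. The part of small RNA genes in the footprint values of these genes was not tested either. GATAD2B and SUZ12 hold no annotated small nucleolar, small nuclear or micro RNA gene.

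HDAC4 had footprints of 22.2, 0.889 and 7.19, so both knockdown libraries were below the control but apart from each other (log2 change -2.56 ± 0.95). HDAC7, another class IIa deacetylase, stood at 20.7, 28.1 and 25.8. Of the SWI/SNF subunits, SMARCC2 had 52.8, 19.3 and 30.2 (log2 change -1.10 ± 0.43, unadjusted p = 0.0403 in limma), and ARID1A 29.1, 24.5 and 12.9. SMARCA5, the ISWI ATPase, had 127.1, 147.7 and 216.2, higher in both. None of these passed.

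**Figure D3:**
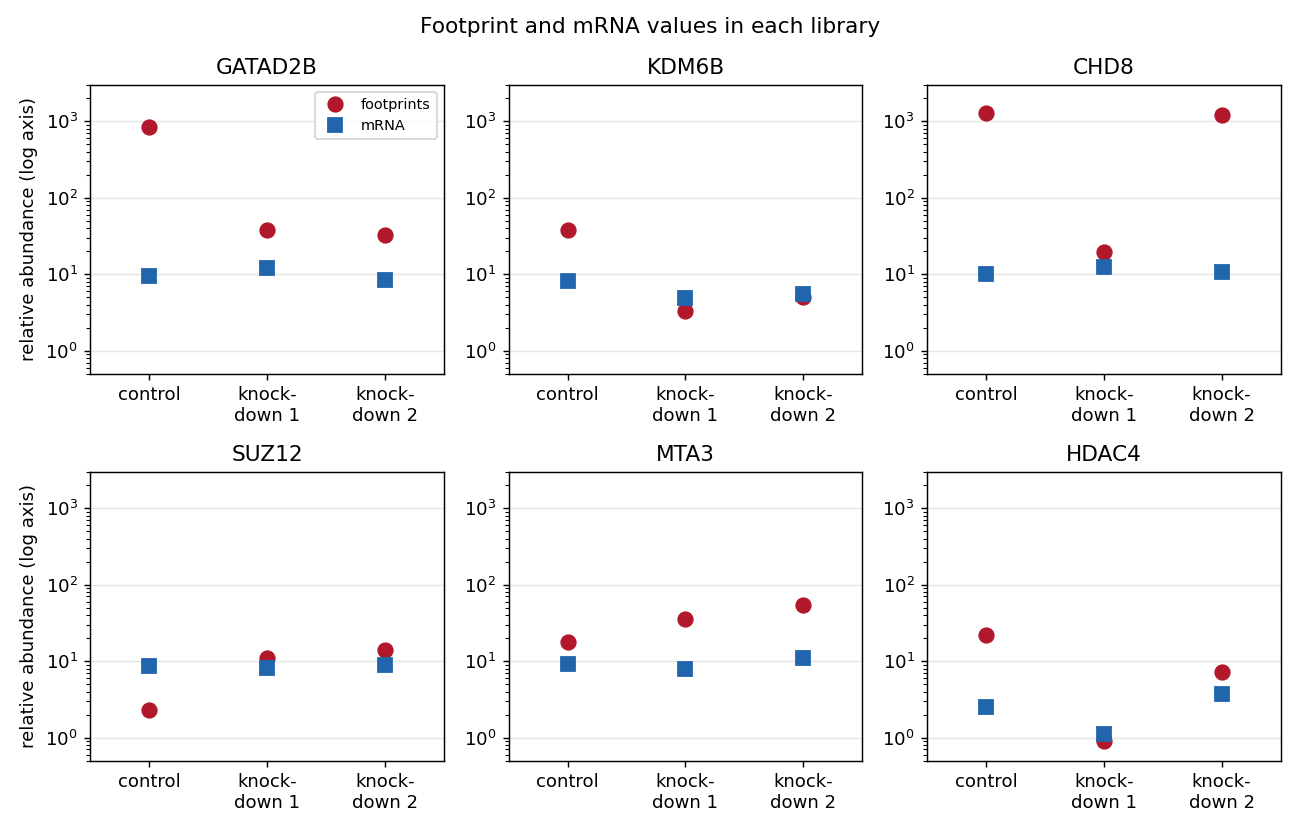
Footprint (circles) and mRNA (squares) values of 6 chromatin genes in the control, knockdown 1 and knockdown 2 libraries, 1 point per library, on a log axis of relative abundance. GATAD2B footprints are 858 in the control against 38.2 and 33.1, and CHD8 footprints are low in knockdown 1 alone; the scales of footprints and mRNA are not comparable with each other.

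Counted over all complexes, both knockdown libraries lay below the control in footprints for 28 of 57 genes (49.1%, against 51.2% of all genes tested) and above it for 9 (15.8%, against 17.5%). With each library centred on its median the counts were 15 below (26.3%, against 30.9%) and 19 above (33.3%, against 34%), and after quantile normalisation 17 below (29.8%, against 32.9%) and 19 above (33.3%, against 32.1%). The chromatin genes were thus near the background in both directions under each scaling, and their median log2 change of -0.33 compares with -0.28 over all genes. CHD5, whose control footprint value decided that it was tested, is among the 28 genes and the 15 after centring. SWI/SNF had 4 below and 0 above of 8 genes, but 3 and 2 after centring. The 4 H3K4 methyltransferase genes had 3 below and 0 above, but 1 and 1 after centring. The 10 other SET-domain genes had 4 below and 2 above, but 3 and 6 after centring, so directions by complex depend on the scaling. PRC2 kept 1 below and 2 above, and SMARCA5 stayed above.

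For mRNA no chromatin gene passed in limma, as no gene of the table did (0%), and 1 of 57 had an unadjusted p under 0.05 against 0.472% of all genes. That gene was KDM3A, an H3K9 demethylase induced by hypoxia, with mRNA values of 5.80, 16.8 and 18.2. Both knockdown libraries were well above the control, a log2 change of 1.44 ± 0.55 (SE, unadjusted p = 0.0365 and adjusted p = 1.00 in limma). Both assays share 1 spread per gene in this fit, so the SE also holds the spread of the KDM3A footprints. The log2 differences in knockdown 1 and knockdown 2 were 1.39 and 1.49 in mRNA, but 0.71 and -0.39 in footprints. Its footprints were 18.8, 31.4 and 14.1, above the control in knockdown 1 and below it in knockdown 2.

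Both knockdown libraries were above the control in mRNA for 25 of 57 genes (43.9%, against 30.9% of all genes) and below it for 17 (29.8%, against 29.9%). KMT2B, counted above at 2.55, 2.58 and 3.06, passed the filter on low values only through its mRNA library of knockdown 2. Its mean log2 value was 1.17 over all libraries and 0.99 without that one. Median centring gave 26 above (45.6%, against 30.4%) and 16 below (28.1%, against 30.6%), and quantile normalisation the same counts against 31.6% and 29.7%. CHD9, a remodeler, had mRNA values of 1.63, 4.16 and 3.77, and SETD5 had 51.0, 66.5 and 82.5. KDM2A stood at 17.7, 27.7 and 25.8, KMT5C, an H4K20 methyltransferase, at 1.60, 3.54 and 2.49, and KMT2A at 2.12, 3.09 and 3.30. These 5 genes had log2 changes between 0.43 and 0.92.

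In SWI/SNF both knockdown libraries were below the control in mRNA for 7 of the 8 subunits taken by symbol (against 29.9% of all genes), also after median centring (against 30.6%), with ARID2 above. Of the 8 other SWI/SNF subunits tested, 4 were below, 2 above (PBRM1 at 0.83 and DPF2 at 0.17 on the log2 scale) and 2 split. For the 3 subunits given next, the lower values were in knockdown 1. SMARCB1, a core subunit, had mRNA values of 174.7, 95.6 and 174.3, ARID1A 77.5, 39.9 and 73.9, and SMARCD1 39.8, 26.4 and 35.8. In knockdown 2 the log2 differences of these 3 genes were -0.00, -0.07 and -0.15, and the largest mean change among the 8 taken by symbol was -0.50 ± 0.54 (SE) for ARID1A. The mRNA library of knockdown 1 also stood apart in some marker genes, with KRT8 at 2142 against 1529 in the control and 1268 in knockdown 2, and CD68 at 4.98 against 19.9 in each. KRT18 and KRT19 were also highest in knockdown 1. EPCAM (141.9, 156.6 and 140.7) and CDH1 (20.1, 21.4 and 18.9) differed less, and the fibroblast markers summed to 7.50, 7.13 and 6.35. The part of that library in the SWI/SNF values was not tested. None passed. Among the lower genes outside SWI/SNF, HDAC7 stood at 16.9, 6.98 and 11.9, KMT5B at 14.7, 10 and 11.1, and KDM1A at 58.4, 43.4 and 47.4.

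**Figure D4:**
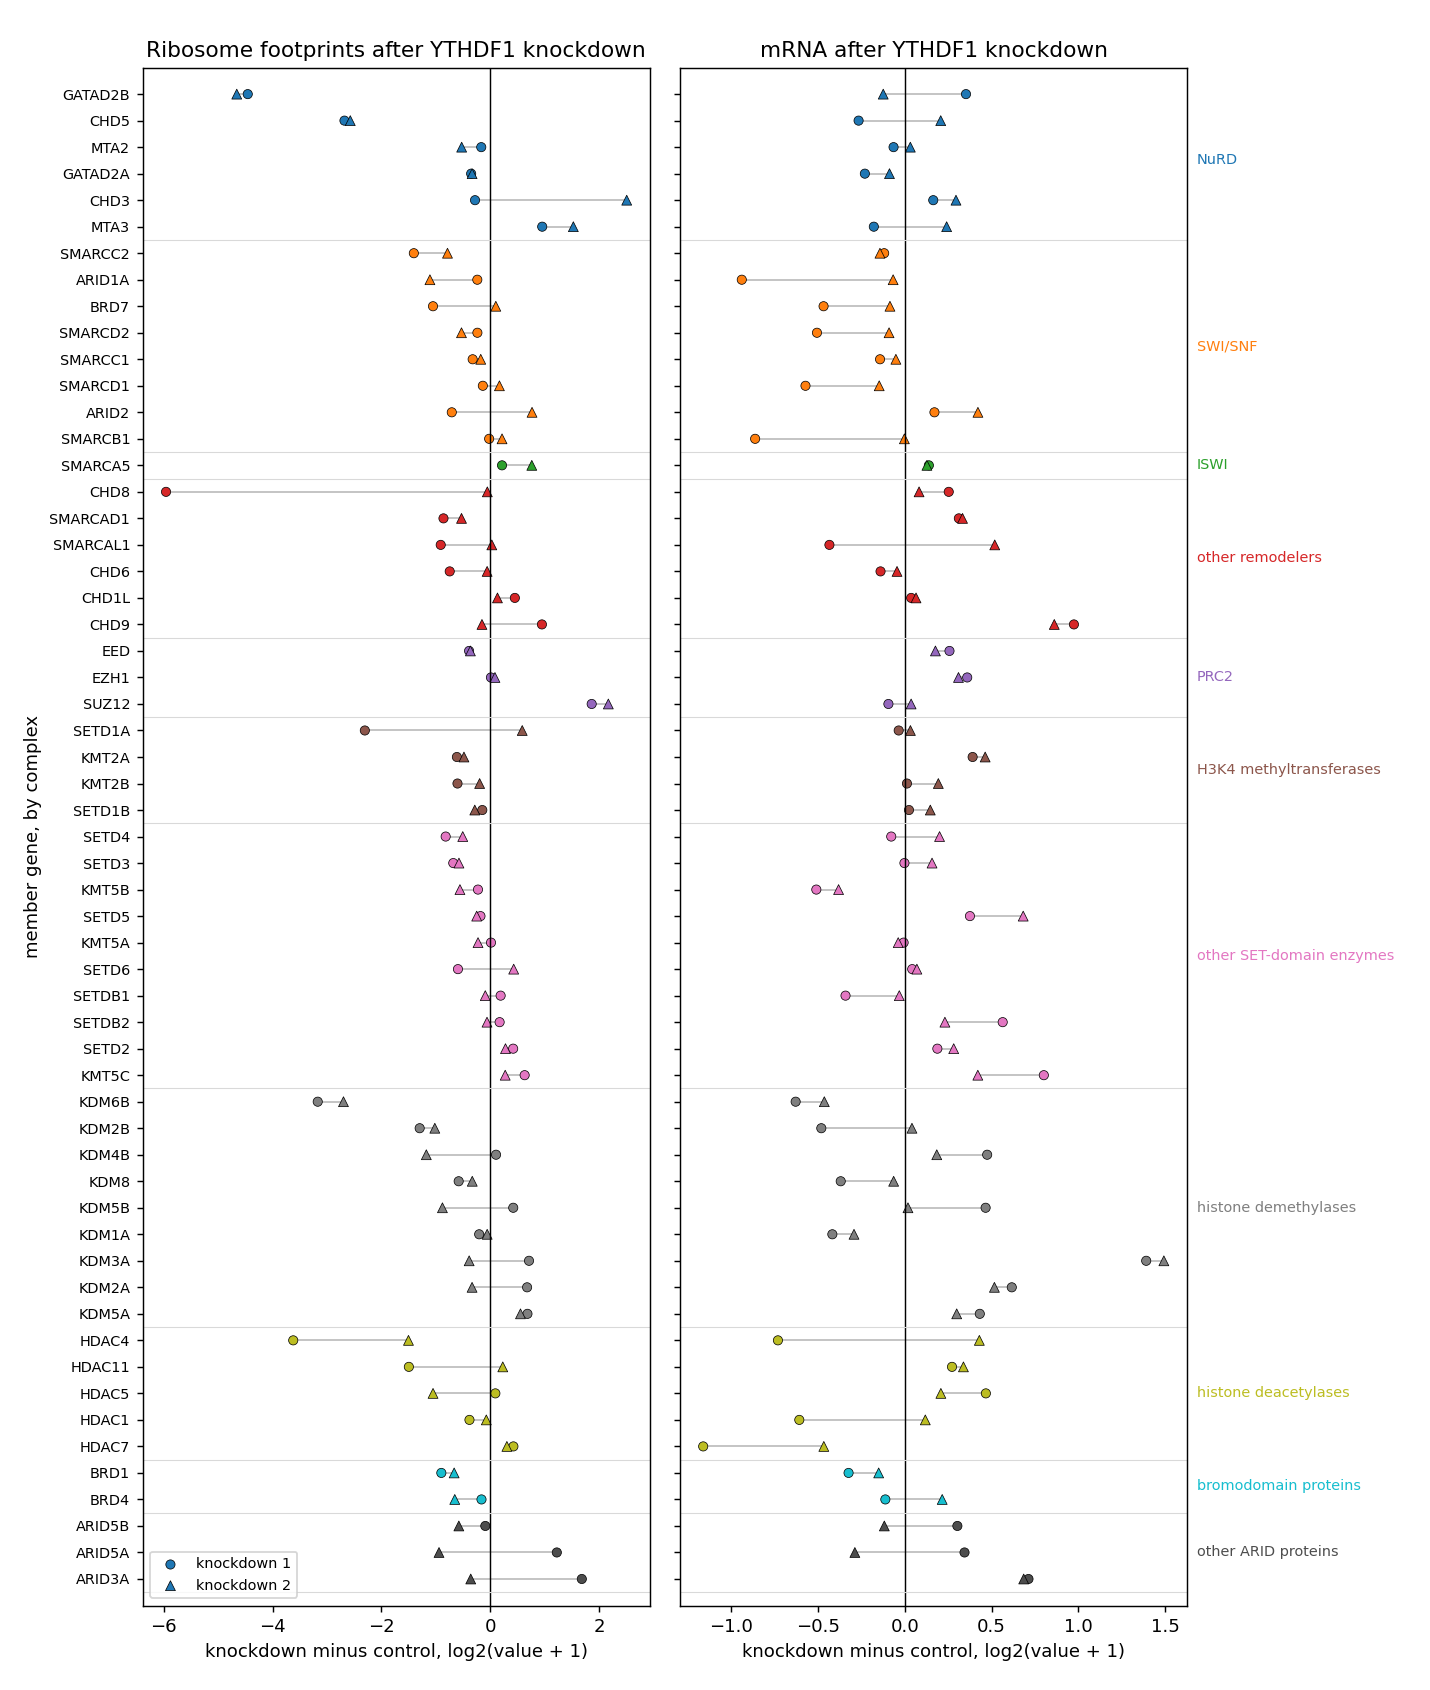
Difference of each knockdown library from the control on the log2(value + 1) scale for the 57 tested chromatin genes, ordered by complex, circles for knockdown 1 and triangles for knockdown 2, footprints left and mRNA right on different scales. GATAD2B lies farthest left in footprints by its mean, at -4.56, and KDM3A farthest right in mRNA, at 1.44.

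Translational efficiency was taken as the footprint change minus the mRNA change. No chromatin gene passed in limma, as no gene of the table did (0%), and 4 of 57 had an unadjusted p under 0.05 against 2.73% of all genes. They were GATAD2B at -4.67 ± 0.55 (SE, adjusted p = 0.349), KDM6B at -2.39 ± 0.69, CHD5 at -2.60 ± 0.77 and SUZ12 at 2.04 ± 0.66, the last 3 with limma adjusted p = 0.996. Without CHD5, whose control footprint value decided that it was tested, these were 3 of 56. Efficiency was lower than in the control for both numbered libraries in 33 of 57 genes (57.9%, against 52% of all genes) and higher in 9 (15.8%, against 18.7%). With median centring these were 19 (33.3%, against 33.1%) and 16 (28.1%, against 34.6%), and quantile normalisation gave the same counts against 35.2% and 33.1%. CHD5 is among the 33 lower genes and among the 19 with median centring.

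Several genes had mRNA and footprints on opposite sides of the control. HDAC7 had lower mRNA and higher footprints in both knockdown libraries, an efficiency difference of 1.18 ± 0.65 (SE). SETD5 had higher mRNA and footprints of 160.5, 141.5 and 134.9, a difference of -0.74 ± 0.45, although its footprints lay above the control once the libraries were centred. KMT2A had footprints of 6.57, 3.95 and 4.41 and a difference of -0.98 ± 0.69. SMARCAD1, a remodeler of replication and repair, had footprint values of 48.3, 26.2 and 33.2 with mRNA values of 5.04, 6.49 and 6.60, a difference of -1.02 ± 0.59. None passed the threshold.

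Split by RIP, the 37 listed genes had a median efficiency difference of -0.43 and the 20 others -0.18. Over all genes tested these medians were -0.29 for 2447 listed genes and -0.26 for 4335 others. Median footprint changes were -0.34 and -0.24 for the chromatin genes and -0.31 and -0.27 for all genes. Of the 4 genes with an unadjusted p under 0.05 in efficiency, GATAD2B and KDM6B were in the RIP list at 1.73 and 2.70, and CHD5 and SUZ12 were not in it. All 4 had m6A peaks in both replicates, as did 91.2% of the 57 chromatin genes and 73.3% of all genes tested. For the RIP list these shares were 64.9% and 36.1%. The 8 genes with the highest RIP ratios had footprint changes from -3.01 (CHD8) to 0.62 (KDM5A), with CHD6 at -0.40. SETD1B stood at -0.22, a direction that turned with the scaling, since its change relative to all genes was 0.06.

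Partner subunits outside the symbol rule were counted from a list of 61 symbols, of which 32 were tested. None passed in footprints, mRNA or efficiency (limma). An unadjusted p under 0.05 was found for 4 in footprints, 0 in mRNA and 2 in efficiency, against 8.85%, 0.472% and 2.73% of all genes. In footprints both knockdown libraries were below the control for 17 (against 51.2% of all genes) and above for 4 (against 17.5%). TBL1XR1, a subunit of the NCoR and SMRT corepressors that hold HDAC3, had footprints of 154.0, 397.1 and 418.9 (log2 change 1.40). SAP30 of the SIN3 complex had 28.6, 8.04 and 9.94 (-1.57). CXXC1 and WDR82, which serve the SETD1 enzymes, had 84.7, 35.7 and 52.4 (-0.95) and 139.8, 76.4 and 82.3 (-0.81).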

How the data were processed

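HCT116 footprints, mRNA, YTHDF1 RIP and m6A were measured in 10 samples. Per the submitters' processing notes STAR and GRCh38 were used, while their versions, the counter and the peak caller are not given in the sources at hand. The expression table is a deposited signal per gene in an unnamed unit, and every control value is at least 0.5, so genes low in the control were left out before deposit. The RIP table holds FPKM and their ratio as deposited by the authors. The m6A lists hold the authors' signal and ratio per peak, called per replicate. The deposited ratios are missing where the input is 0.

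Tests used log2(value + 1), so the fold of a weakly expressed gene is understated. The filter kept the 6782 genes with a mean log2 value of 1 or more, and left out 132 low genes and 12 rows with damaged names. A limma 3.58.1 trend model (R 4.3.3) with 1 mean per assay and condition was fitted to 6 libraries, with 2 residual degrees of freedom, 2-sided tests and Benjamini-Hochberg adjustment over all genes at 0.05. Each control has 1 library and is taken to vary as the knockdown libraries do. Footprints and mRNA share 1 estimate of the spread per gene, so a gene has the same SE in both. The p-values of 1 assay thus also carry the spread of the other. The fit was tested on simulated data with independent noise of equal spread in all libraries, which cannot test the reliance on 1 control library. Groups came from the sample titles. Gene coordinates and older symbols are from the RefSeq table of GRCh38.p14, in which 94.9% of tested genes had a span.

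Members, complex lists, tests and the rule for named genes were chosen with earlier results of these data known. The rule named YTHDF1, called genes, the 6 smallest p per direction and contrast with both knockdown libraries on 1 side, all PRC2 and NuRD genes, and the 8 highest by RIP ratio and by peak number. Others were chosen after their values were seen. The comparison with genes of similar span and the counts without CHD5 were also chosen after the data were seen. Alternatives were another pseudocount, no filter, 2 scalings, each assay alone, the knockdown number as a block, each knockdown library left out, a stricter peak ratio, peak overlaps and a stricter RIP ratio.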

Additional observations from a re-analysis of the deposited data

How the results depend on the processing

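The count of chromatin genes called in footprints, 1 as reported, was 0 with a pseudocount of 0.1, without the filter, with median centring and with quantile normalisation, and 1 with each assay alone. Leaving out 1 knockdown library at a time gave 1 to 3, and the 3 arose without footprint library 2 (GATAD2B, KDM6B and CHD8). That fit sets 1 footprint library against 1, so its spread comes from the mRNA knockdown libraries alone and the lone library is assumed to vary like them. The CHD8 call leaves out its knockdown 2 value of 1228. With the replicate block, the knockdown number as a term shared by both assays, it was 2 (GATAD2B and KDM6B). The labels do not say that the numbers pair cultures. The knockdown 1 minus knockdown 2 difference correlated at 0.37 across genes between assays. The counts for mRNA and efficiency were 0 under every alternative run.

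Counts of genes with both knockdown libraries below the control went from 28 to 15 (median centring) and 17 (quantile) in footprints and from 33 to 19 under each in efficiency. Counts above it went from 9 to 19 under each in footprints, and from 9 to 16 under each in efficiency. The counts for mRNA stayed within 1.5 times. The footprint change of CHD3 ran from -0.28 without footprint library 2 of the knockdown, a reversal, to 2.51 without library 1, and that of HDAC1 to 0.061 with median centring and 0.0015 with quantile normalisation. Counts of genes with m6A peaks and of genes in the RIP list stayed within 1.5 times under each alternative run. An input FPKM of at least 1 removes nothing, since the list already applies it. A change of 1 library cannot be checked in the controls, RIP or input, and unknown depth limits genes with low values such as CHD5.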
